A study of Mus musculus with 12 samples.

Results

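The genes described here are interleukin-4 (Il4) and interleukin-13 (Il13), the receptor chains Il4ra and Il13ra1 and the transcription factor Stat6. Beside them stand Retnla, Chil3 and Mrc1, which are usually high where this pathway is active, and Retnlg, a resistin-like neighbour of Retnla. Together they are 9 of the 53801 genes in the count table. The set was named by symbol, and Retnla was chosen by its value in the bone marrow comparison of genotypes. The libraries are bulk RNA of purified eosinophils from the bone marrow or the blood, and each of the 4 groups of genotype and tissue has 3 libraries. Control animals carried eoCre, a Cre recombinase knocked into the eosinophil peroxidase gene and used as a heterozygote. Atg5-knockout animals carried eoCre together with Atg5 flox/flox, so that this autophagy gene is lost in the eosinophil lineage only. Every group also carried the Il5 transgene under a T cell promoter, which raises eosinophil numbers, and all values are therefore from animals with excess interleukin-5. The number, age and sex of the mice behind these libraries are not given in the sources used here. Cells were purified by magnetic removal of other cell types, with no antibody against basophils. Blood, but not bone marrow, was first put through a density gradient and a brief lysis of red cells in water.

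IL-4 and IL-13 are the leading cytokines of type 2 immunity, the response to helminths and allergens. Both act through receptors that hold the IL-4Rα chain, whose Janus kinases phosphorylate STAT6, and the activated factor enters the nucleus and switches on target genes. Eosinophils store and release IL-4, and in fat tissue eosinophil IL-4 is known for sustaining alternatively activated macrophages. Retnla (RELMα), Chil3 (Ym1) and Mrc1 (the mannose receptor CD206) are the textbook marks of such macrophages in mice, and Retnlg (RELMγ) is a neighbouring resistin-like gene known for its expression in bone marrow and neutrophils.

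Retnla and Retnlg are neighbours on chromosome 16 in GRCm38, the build of the counts. Retnla lies at chr16:48842552-48844461 and Retnlg at chr16:48872608-48874498, both on the plus strand, with 28146 bases between them. Il4 (chr11:53602982-53618669) and Il13 (chr11:53631324-53634702) are neighbours of the same kind on the minus strand of chromosome 11, 12654 bases apart. All 9 genes had a promoter window in the RefSeq table for GRCm38.p6, 10 windows in all since Il4 has a pair of starts. The 250 bases before each start were searched for TTCNNNNGAA, the spacing that STAT6 binds best, and for TTGCNNAA, a core of the sites bound by C/EBP factors, on both strands. These motifs were picked after the sequences had been seen. The first was found in Retnla, Retnlg and Il4 and in no window of the other 6 genes, against 5.85% of 32851 windows over all genes. The second was found in the same 3 genes, against 9.56% of all windows. The stretches of 70 bases around the first motif are shown because they hold the shared letters of the pair of resistin-like genes and of the cytokine, with both motifs in capitals:
Retnla, chr16:48842434-48842503, plus strand: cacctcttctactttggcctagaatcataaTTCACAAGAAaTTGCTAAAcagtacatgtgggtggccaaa
Retnlg, chr16:48872506-48872575, plus strand: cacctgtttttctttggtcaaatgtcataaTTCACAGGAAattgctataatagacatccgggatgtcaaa
Il4, chr11:53618793-53618862, minus strand: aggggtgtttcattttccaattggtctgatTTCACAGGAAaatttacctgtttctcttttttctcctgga

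The first motif begins 145 bases before the start of Retnla, 72 before that of Retnlg and 167 before the upstream start of Il4. In Retnla the second motif follows a single base after the first, whereas in Retnlg and Il4 it lies outside the stretch shown. The windows of Retnla and Retnlg aligned over 177 columns with 76.3% identical letters, yet the values of these genes differed in the sections that follow. A match describes letters only, since no binding was measured in these libraries.

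The libraries held between 18885052 and 30270166 counts, and all 9 genes passed the filter on low counts in every comparison. Eosinophil markers (10 of 10 detected, among them Epx and Prg2) took 8.04% to 10.2% of counts in bone marrow and 1.80% to 4.05% in blood. The sum held opposite changes. By estimate 3 of the 10 were higher and 7 lower in control blood, and 2 higher and 8 lower in knockout blood. In control, mean Prg2 was 45638 CPM in bone marrow and 16155 CPM in blood, and mean Siglecf 446 and 843 CPM. Control blood replicate 1 stood apart, with 14.6% of its counts on 8 red cell genes, and the blood libraries numbered 1 of both genotypes had the highest B cell markers (2050 CPM in the knockout and 1192 CPM in the control, against 173 to 414 CPM in the other blood libraries). CPM are counts scaled to a common library size by TMM. The targeted gene, Atg5, had 31.0 to 34.5 CPM in knockout bone marrow and 41.4 to 44.8 CPM in control bone marrow, but 36.0 to 52.2 CPM in knockout blood and 39.96 to 58.9 CPM in control blood. The count covers the whole gene, so that it does not check the loss of floxed sequence. In bulk RNA, fewer cells of a type and less RNA per cell cannot be told apart.

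Per gene length, the group means of Retnlg, Retnla and Chil3 exceeded those of the cytokines, the receptor genes and Stat6 in every group, whereas Mrc1 ranked 8 or 9 of the 9 genes. Retnlg was the highest of the 9 genes in every group, with a mean of 7874 ± 864 RPKM (CPM per kilobase of gene length, SD, n = 3) in control bone marrow and 10893 ± 2695 RPKM in control blood, and ranked between 3 and 6 among all genes of the table by group. In control bone marrow Retnla followed at 1946 ± 567 RPKM (rank 19 of all genes) and Chil3 at 681 ± 82.4 RPKM (rank 65). Il4 stood at 50.3 ± 3.06 RPKM there and Stat6 at 40.5 ± 5.0 RPKM. Il13 (12.2 ± 3.05 RPKM) and Il4ra (10.7 ± 1.43 RPKM) were next, and Mrc1 (3.43 ± 0.463 RPKM) and Il13ra1 (2.85 ± 0.237 RPKM) came last. Neighbours in that order whose libraries overlapped were Il13 with Il4ra and Mrc1 with Il13ra1.

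The order of the means changed in the other groups. In knockout bone marrow Chil3 (798 ± 41.3 RPKM) stood above Retnla (474 ± 243 RPKM), with no overlap between the libraries of these genes, a position that follows from the value by which Retnla was chosen. In blood, Retnla and Chil3 overlapped in both genotypes, at 600 ± 281 and 303 ± 201 RPKM in the control and 290 ± 165 and 238 ± 168 RPKM in the knockout. Il4ra passed Il13 in knockout bone marrow, where their libraries overlapped, and took rank 6 in blood (39.8 ± 12 RPKM in control). Il13ra1 moved from rank 9 in bone marrow to rank 7 in blood, at 6.58 ± 0.474 RPKM in the control and 7.32 ± 0.832 RPKM in the knockout, above every library of Il13 (2.76 ± 2.40 RPKM in control) and Mrc1 (3.25 ± 2.15 RPKM), which overlapped with each other. Il4 and Stat6 exchanged ranks between groups and overlapped in all but control bone marrow, and in knockout blood Il4 also overlapped with Chil3.

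**Figure D1:**
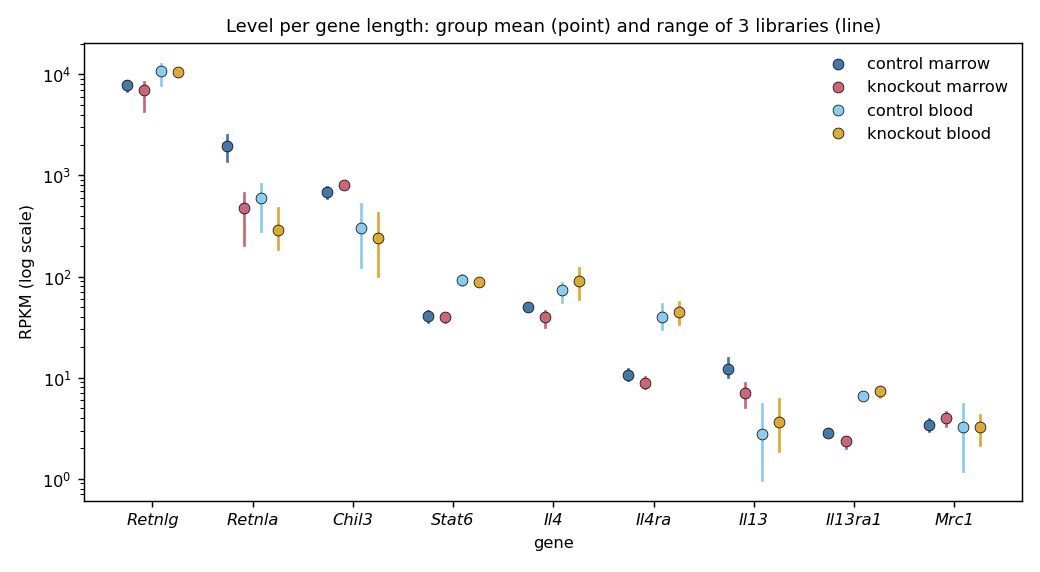
Level per gene length of the 9 genes, as RPKM on a log axis, with the mean of each group as a point and the range of its 3 libraries as a line. Retnlg stands highest in every group, and the means of Il4, Il13, Il4ra, Il13ra1 and Stat6 lie below those of the resistin-like genes and Chil3, although the ranges of Il4 and Chil3 overlap in knockout blood.

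The first question was whether loss of Atg5 in eosinophils went with a change in these genes in bone marrow. Since Retnla was selected on its value here, the contrast is given as a description, and no test of it is used as evidence. Retnla had 325.5, 121.8 and 403.8 CPM in the 3 knockout libraries and 823.0, 1502 and 1167 CPM in the 3 control libraries. Each knockout library was below every control library, and knockout replicate 2 was the lowest of all. The level was 4.23-fold lower in the knockout (log2 fold change -2.08, SE 0.35, 95% interval -2.85 to -1.31). Without knockout replicate 2 the log2 fold change was -1.71, and without knockout replicate 3 it was -2.42.

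Its neighbour Retnlg had 5096, 2620 and 5014 CPM in knockout and 4201, 5216 and 4945 CPM in control bone marrow. The groups overlapped, the low library was again knockout replicate 2, and without it the log2 fold change moved from -0.21 to 0.04. Set against Retnlg within each library, which needs no scaling between libraries, Retnla made 4.73% to 8.19% of the RPKM of Retnlg in knockout bone marrow and 19.9% to 29.3% in control bone marrow. Knockout replicate 2 was also the lowest in this ratio, and the other knockout libraries stayed below every control library. No stretch of 100 bases of a Retnla or Retnlg transcript was found in a transcript of another gene.

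Both cytokines had lower values in each knockout than in each control bone marrow library, by less, and neither passed over all genes by edgeR (Il13 did under DESeq2 and without a filter). Il13 had 8.64, 6.16 and 10.7 CPM in knockout and 18.9, 12.3 and 12.8 CPM in control libraries, a log2 fold change of -0.83 (95% interval -1.30 to -0.36). Il4 had 51.1, 38.6 and 56.0 CPM against 61.0, 65.7 and 58.3 CPM, a log2 fold change of -0.39 (95% interval -0.70 to -0.08). The receptor genes were close to Il4 in size, with log2 fold changes of -0.32 for Il4ra (95% interval -0.60 to -0.05), whose libraries overlapped, and -0.30 for Il13ra1 (-0.64 to 0.04), whose libraries did not. Stat6, the factor that carries the signal, stood at -0.07 (-0.32 to 0.18). Chil3, the chitinase-like protein, had 1259 to 1380 CPM in knockout and 980 to 1249 CPM in control bone marrow (log2 fold change 0.19), higher in each knockout library, and Mrc1 overlapped (0.16).

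In the edgeR quasi-likelihood fit with Benjamini-Hochberg adjustment over all genes, 1 of the 9 had an adjusted p under 0.05, Retnla itself, beside 0.348% of the 13781 genes tested. The libraries of the groups did not overlap for 5 of the 9, beside 14.5% of all genes tested. Nothing is read from either share, since this contrast chose Retnla. The count was 0 in the fit of all 12 libraries, with the replicate number as a block, and without knockout replicate 1 or control replicate 3. Neutrophil markers (13 of 13 detected) summed to 22101 to 25243 CPM in knockout and 17762 to 25236 CPM in control bone marrow, monocyte and macrophage markers (12 listed, 1 or 2 at 0 in each library) to 1946 to 2240 and 1819 to 1970 CPM, and basophil and mast cell markers (7 of 7 detected) to 193 to 245 and 184 to 208 CPM. These ranges overlapped between the genotypes, and the part of these cells in the values of Retnla, Il13 and Il4 was not tested. Red cell markers reached higher sums in the knockout, at 1911 to 6538 CPM against 1293 to 2243 CPM in control, with overlapping ranges. Knockout replicates 1, 2 and 3 had 3836, 6538 and 1911 CPM of these markers, and the lowest Retnla was in replicate 2 and the highest in replicate 3. The part of red cells in these values was not tested.

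**Figure D2:**
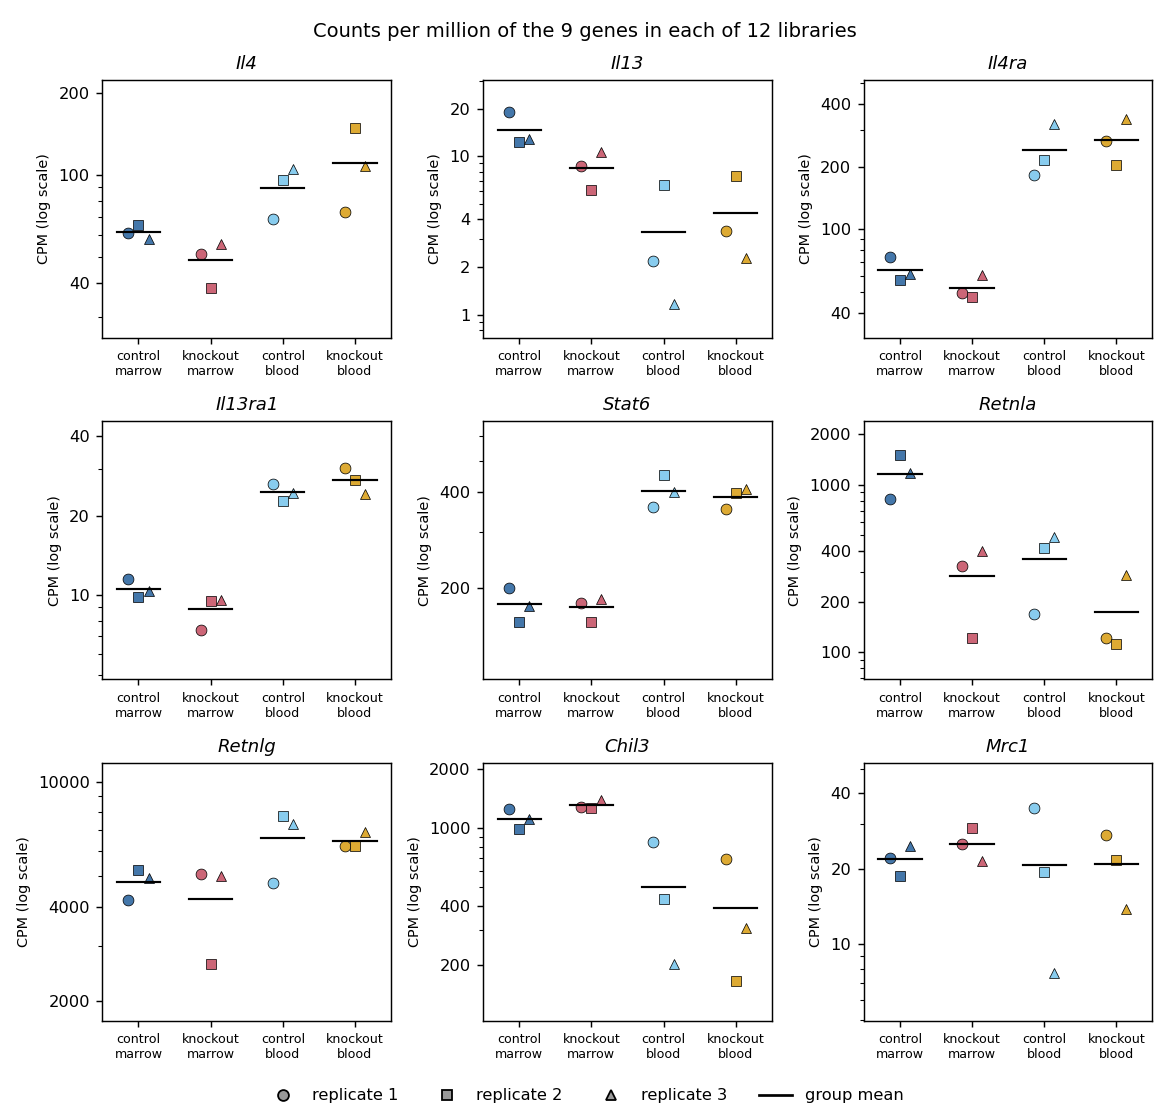
CPM of each gene in the 12 libraries, on log axes that differ between panels, with a symbol for each replicate number and a bar for the group mean. Retnla is lower in all 3 knockout bone marrow libraries (121.8 to 403.8 CPM) than in the control bone marrow libraries (823.0 to 1502 CPM), and Il4ra, Il13ra1 and Stat6 are higher in every blood library than in every bone marrow library.

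The same comparison in blood used libraries that had no part in the choice of Retnla. None of the 9 genes passed the test there, and 5 of the 13460 genes tested (0.0371%) did. At an unadjusted p under 0.05 the count was again 0 of the 9, beside 2.58% of all genes tested, and DESeq2 and limma-voom also called 0. Retnla had 121.1, 112.0 and 286.8 CPM in knockout blood and 168.2, 420.2 and 487.1 CPM in control blood, a log2 fold change of -1.0 (SE 0.46, 95% interval -2.05 to 0.05, edgeR adjusted p = 1.0). Its groups overlapped, with knockout replicate 3 above control replicate 1. In each pair of blood libraries with the same number the knockout library was the lower. The estimate ran from -1.60 without knockout replicate 3 to -0.72 without control replicate 3, and was -1.14 without the blood libraries numbered 1. Against Retnlg, Retnla made 1.82% to 4.21% in knockout and 3.60% to 6.74% in control blood.

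The other 8 genes showed no difference in blood that the replicates could carry. Their log2 fold changes lay between -0.33 for Chil3 and 0.41 for Il13, and the libraries of the groups overlapped for all 9 genes, where 7.54% of the genes tested did not overlap. The intervals differed widely in what they leave possible. Retnlg (-0.53 to 0.53), Stat6 (-0.43 to 0.36) and Il13ra1 (-0.26 to 0.62) were bounded within about a log2 unit, whereas Il13 (-1.10 to 1.92) and Chil3 (-1.67 to 1.01) were not. Chil3 turned from -0.33 to 0.33 without control replicate 1, and Mrc1 from 0.03 to -0.36 without control replicate 3. Red cell and platelet markers were lower in knockout blood (medians of -3.47 and -2.26 on the log2 scale over the genes tested), which includes the high red cell level of control replicate 1, and their part in these values was not tested.

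Whether the knockout effect differed between tissues was tested as an interaction over all 12 libraries, which include those that chose Retnla. By the edgeR quasi-likelihood test 0 of the 9 genes passed, 0 had an unadjusted p under 0.05 (5.03% of all genes tested did), and DESeq2 and limma-voom called 0. Over all 14712 genes the share called was 0%. For Retnla the effect was 1.02 log2 units less negative in blood than in bone marrow (95% interval -0.44 to 2.49, adjusted p = 0.942). For Il4 the difference was 0.66 (-0.05 to 1.37) and for Il13 it was 1.19 (-0.42 to 2.81). These intervals reach from no difference to more than a log2 unit, so that the tissues are not shown to differ or to act alike.

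The tissue comparison asks how these genes differ between eosinophils of bone marrow, where they mature, and of blood. It shares its bone marrow libraries with the contrast that chose Retnla, and both genotypes are given side by side. Only blood went through the gradient and the lysis, so that tissue and preparation of the cells cannot be told apart. Il4ra, which encodes the chain common to both receptors, showed the largest rise of the 9 genes. It had 73.6, 57.1 and 61.25 CPM in control bone marrow and 182.5, 215.0 and 320.0 CPM in control blood, and 49.5, 47.8 and 60.5 CPM against 263.9, 204.2 and 337.3 CPM in the knockout. Every blood library was above every bone marrow library in both genotypes. The level rose 3.77-fold in control (log2 fold change 1.92, SE 0.23, adjusted p = 0.000411) and 5.35-fold in the knockout (2.42, SE 0.20, adjusted p = 3.11e-05).

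Il13ra1, the chain that pairs with IL-4Rα to bind IL-13, rose from 9.855 to 11.6 CPM in bone marrow to 22.7 to 26.2 CPM in blood of control mice (log2 fold change 1.22, SE 0.18, adjusted p = 0.00131). In the knockout it rose from 7.40 to 9.64 CPM to 24.0 to 30.2 CPM (1.68, SE 0.18, adjusted p = 0.000112). Stat6 rose in both genotypes, from 157 to 201 CPM to 361 to 453 CPM in control (1.2, SE 0.16, adjusted p = 0.000833) and from 157 to 186 CPM to 355 to 409 CPM in the knockout (1.21, SE 0.13, adjusted p = 0.000110). The receptor chains and Stat6 thus rose together in blood of both genotypes, and these calls were kept under every alternative that was run. Without control blood replicate 1, which had high B cell and red cell markers, the change of Il4ra was 2.07. Stat6 shares 40 exon bases with Nab2 on the other strand, and Il4ra shares 571 with an antisense transcript that had 0 to 3 counts in each library.

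Il4 rose in blood as well, by less. It had 61.0, 65.7 and 58.3 CPM in control bone marrow and 68.8, 95.8 and 105.0 CPM in control blood, a log2 fold change of 0.55 (SE 0.18, adjusted p = 0.0454). That call was lost without any of 5 of the 6 libraries (without control blood replicate 1 it held) when libraries were scaled by their totals alone, without a filter and in the fit of all 12 libraries. In the knockout Il4 had 51.1, 38.6 and 56.0 CPM in bone marrow and 73.2, 149.5 and 108.3 CPM in blood, and rose 2.37-fold (log2 fold change 1.25, SE 0.25, adjusted p = 0.00323), a call kept under every alternative. In both genotypes no blood library was as low as any bone marrow library.

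Its neighbour Il13 moved the other way. It had 18.9, 12.3 and 12.8 CPM in control bone marrow and 2.19, 6.61 and 1.17 CPM in control blood, where the counts were 37, 150 and 24 reads. The level fell 4.33-fold (log2 fold change -2.11, SE 0.55, adjusted p = 0.0172), without overlap. Without control blood replicate 2 the change was -3.09, and without control bone marrow replicate 1 the call was lost (-1.91, adjusted p = 0.0686). In the knockout Il13 had 8.64, 6.16 and 10.7 CPM in bone marrow and 3.37, 7.45 and 2.29 CPM in blood, the groups overlapped, and the change of -0.90 (SE 0.42) did not pass (adjusted p = 0.107), although it did without knockout blood replicate 2 (-1.51).

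Within single libraries, where scaling plays no part, Il4 stood 3.17 to 5.25 times above Il13 per gene length in control bone marrow and 5.16 to 6.15 times in knockout bone marrow. In blood it stood 14.2 to 87.8 times above Il13 in control and 19.7 to 46.5 times in the knockout. No blood library reached down to the bone marrow range in either genotype. Basophils and mast cells also make both cytokines, and no antibody removed basophils. The 7 basophil and mast cell markers, all detected in every library, summed to 184 to 208 CPM in control bone marrow and 73.8 to 93.6 CPM in control blood, and to 193 to 245 CPM and 59.5 to 97.5 CPM in the knockout. Il4 was higher where these markers were lower. Il13 was lower where they were lower, and their part in the fall of Il13 was not tested.

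Retnla, Retnlg, Chil3 and Mrc1 did not share a direction between tissues. Retnla fell from 823.0, 1502 and 1167 CPM in control bone marrow to 168.2, 420.2 and 487.1 CPM in control blood (3.24-fold lower, log2 fold change -1.70, SE 0.38, adjusted p = 0.00946), without overlap. In the knockout the change was -0.64 (SE 0.46, edgeR adjusted p = 0.280) with overlapping libraries, and it reached -1.23 (adjusted p = 0.0459) without knockout blood replicate 3. The bone marrow levels of both genotypes entered the choice of Retnla, so that neither change is used as evidence.

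Retnlg did not fall in blood. In the knockout it rose from 5096, 2620 and 5014 CPM to 6228, 6242 and 6927 CPM (log2 fold change 0.67, SE 0.24, adjusted p = 0.0473), a call that was lost without knockout blood replicate 2 or 3, without any of the bone marrow replicates, and under scaling by totals alone. In control the values overlapped, at 4201, 5216 and 4945 CPM in bone marrow and 4747, 7774 and 7348 CPM in blood (0.48, SE 0.23, adjusted p = 0.133), and the change was 0.66 with an adjusted p of 0.00274 without control blood replicate 1. Neutrophil markers summed to 17762 to 25243 CPM over the bone marrow libraries and to 6902 to 15735 CPM over the blood libraries. Retnlg is known from neutrophils, and the part of these markers' cells in its values was not tested.

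Chil3 fell in blood of the knockout from 1268, 1259 and 1380 CPM to 693.3, 164.7 and 307.0 CPM (3.20-fold lower, log2 fold change -1.68, SE 0.43, adjusted p = 0.0109), and the change was -2.40 without knockout blood replicate 1. In control it had 1249, 979.7 and 1105 CPM in bone marrow and 849.8, 434.5 and 201.6 CPM in blood. These groups did not overlap, yet the change of -1.14 (SE 0.43) missed the threshold in the reported edgeR fit (adjusted p = 0.0714). Without control blood replicate 1 it was -1.80 (adjusted p = 0.000720). It passed in 7 of 15 alternatives, among them DESeq2, limma-voom, scaling by totals alone, no filter and the replicate block. The fits without control blood replicate 1 and without the blood libraries numbered 1 are the same here, and both are counted. The blood libraries numbered 1 had the highest Chil3 and the highest neutrophil markers of their groups, at 15735 CPM in the knockout and 15366 CPM in the control against 6902 to 11249 CPM in the other blood libraries. In the control the order of the blood libraries was the same for Chil3 and these markers, whereas knockout replicate 2 had more of the markers than replicate 3 (9010 against 6902 CPM) and less Chil3. The summed markers were also lower in blood than in bone marrow, as Chil3 was, but the single markers were not all lower. By estimate 3 of the 13 were higher and 10 lower in control blood, and 4 higher and 9 lower in knockout blood. Mean Mmp9 was 411 CPM in control bone marrow and 638 CPM in control blood. The part of these markers' cells in the values of Chil3 was not tested. Of the stretches of 100 bases in the Chil3 transcript, 5.10% were also found in Chil4 or Gm6522, and Chil4 had 0 to 8 counts in each library.

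Mrc1 changed in neither genotype by the test. It had 22.1, 18.8 and 24.7 CPM in control bone marrow and 34.98, 19.5 and 7.68 CPM in control blood, with an estimate near 0 (-0.05, 95% interval -1.06 to 0.95). In the knockout the estimate was -0.20 (-0.74 to 0.34). Monocyte and macrophage markers summed to between 1559 and 2240 CPM in all 12 libraries, but the sum held opposite changes. Of the 10 tested, 4 were higher and 6 lower in control blood by estimate, and 5 higher and 5 lower in knockout blood. In control, mean Csf1r was 277 CPM in bone marrow and 868 CPM in blood, and mean Vcam1 171 and 14.5 CPM.

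**Figure D3:**
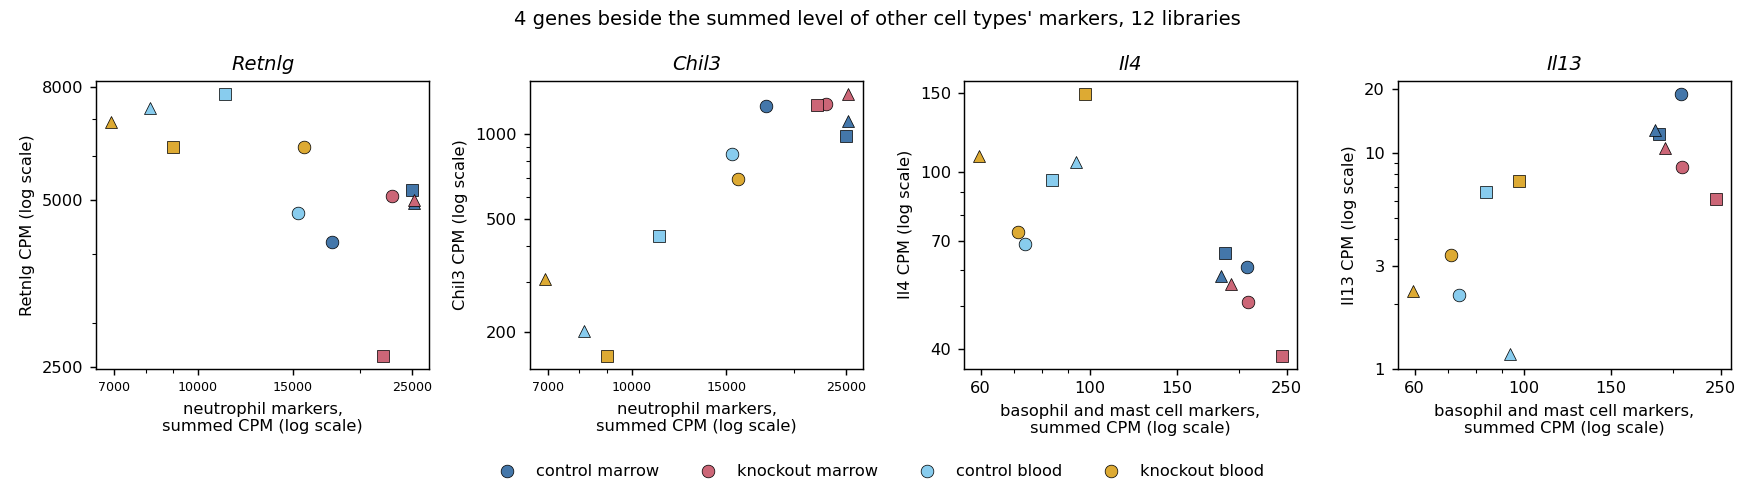
Retnlg and Chil3 against the summed CPM of 13 neutrophil markers, and Il4 and Il13 against the summed CPM of 7 basophil and mast cell markers, on log axes with each point a library (circle, square and triangle for replicates 1, 2 and 3). Chil3 and the sum of the neutrophil markers are lower in every blood library than in every bone marrow library and Retnlg is not, while Il13 is low and Il4 high in the blood libraries, where basophil and mast cell markers sum to between 59.5 and 97.5 CPM.

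By count, 6 of the 9 genes passed in control, where 34.2% of the 13669 genes tested did. Of these 6 genes 4 rose in blood, where 16.2% of all genes tested rose, and 2 fell, among them Retnla, whose bone marrow libraries entered its choice. In the knockout 6 passed as well, where 47.6% of the 13853 genes tested did, and 5 of them rose, where 23.5% of all genes tested rose. The median log2 fold change of the 9 was 0.48 in control and 0.67 in the knockout, against -0.0029 and -0.010 over all genes tested. Scaling by library totals alone lowered the median of all genes tested to -0.31 in control and -0.24 in the knockout, and against those shifted medians Il4ra, Il13ra1 and Stat6 still rose.

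**Figure D4:**
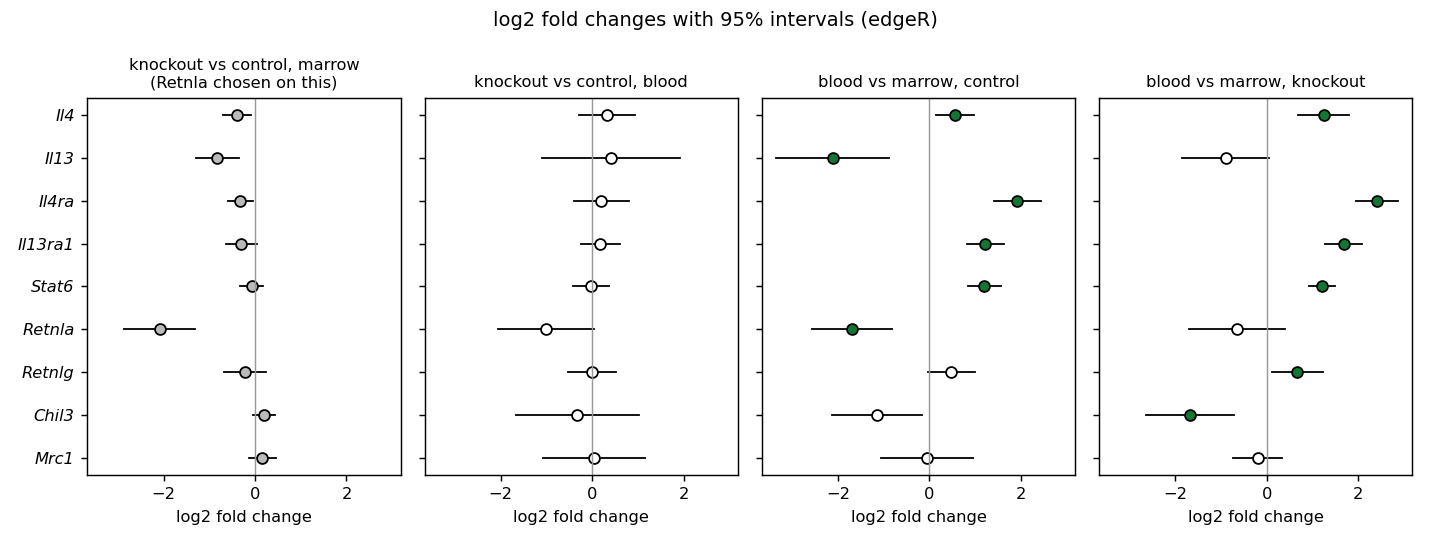
Log2 fold changes of the 9 genes with 95% intervals in the 4 comparisons, where filled green points passed an adjusted p under 0.05 and the grey points of the bone marrow comparison of genotypes are shown without a test. Il4ra, Il13ra1 and Stat6 lie above 0 in both tissue comparisons (1.2 to 2.42), and no gene passes in blood between genotypes.

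Beyond the 9 genes, several partners of the receptor rose in blood. Of 13 chains, kinases and inhibitors listed around the receptor, 11 were tested, and 6 rose and 0 fell in control blood (median log2 fold change 0.88), while 9 rose and 0 fell in knockout blood (median 1.16). Over all genes tested, 16.2% rose in control and 23.5% in the knockout. Il2rg, the common γ chain that completes the type I IL-4 receptor, rose by 1.35 (SE 0.18, adjusted p = 0.000833) in control and 1.63 in the knockout. The kinase Jak1 rose by 1.18 and 1.14, and Irs2, the adaptor through which IL-4 reaches the insulin signalling route, by 1.54 and 1.96. Il13ra2, the decoy receptor for IL-13, had 0 counts in every library, and Irs1 had 7 counts in all.

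Of 18 genes known to be induced through STAT6, 13 were tested in control and 14 in the knockout, and they went both ways. In control 3 rose and 2 fell (median -0.12), where 34.2% of all genes tested passed. In the knockout 4 rose and 1 fell (median -0.04), where 47.6% of all genes tested passed. Tgm2, a transglutaminase that marks alternatively activated macrophages, rose from 0.236 to 0.982 RPKM in control bone marrow to 25.7 to 107 RPKM in control blood (log2 fold change 6.67, SE 0.69, adjusted p = 0.000203), and by 5.39 in the knockout (adjusted p = 1.18e-06). Pparg, a nuclear receptor of lipid metabolism, rose by 2.72 and 2.04, and Pdcd1lg2, which encodes the checkpoint ligand PD-L2, by 3.18 in control. Fcer2a, the low-affinity IgE receptor of B cells as well, rose by 6.13 in the knockout, where its 5.69 RPKM in blood replicate 1 stood beside the highest B cell markers and the other blood libraries had 0.225 and 0.305 RPKM. Arg1, the arginase of alternatively activated macrophages, had at most 14 counts in any library. By estimate 5 of the 13 tested genes of this list were higher and 8 lower in control blood, and 6 and 8 of the 14 in knockout blood. Nothing further is read from the counts that passed.

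Of 11 genes listed for the Il4 locus, the neighbouring genes Rad50 and Kif3a beside transcription factors, all were tested. In control blood 6 rose and 2 fell (median 0.84), where 34.2% of all genes tested passed. In knockout blood 8 rose and 2 fell (median 0.98), where 47.6% of all genes tested passed. Mean Rad50 was 25.3 CPM in control bone marrow and 10.5 CPM in control blood. Cebpb, a C/EBP factor, rose by 3.02 in control (SE 0.24, adjusted p = 4.81e-05) and by 4.27 in the knockout (adjusted p = 5.17e-06), with 29.4 to 49.8 RPKM in control bone marrow and 280 to 335 RPKM in control blood. The AP-1 subunit Junb rose by 2.72 and 3.5, Maf, which drives the Il4 promoter in T cells, by 2.41 in control, and Nfatc1, a calcineurin-dependent factor, by 1.26 in the knockout. T cell markers were higher in blood too, from 4.81 to 6.82 CPM in bone marrow to 15.1 to 243 CPM in blood with the highest sums in the libraries numbered 1, and their part in these values was not tested.

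Other type 2 cytokines were at or near 0 apart from Il5. Il9, Il3 and Il25 had 0 counts in all 12 libraries, and Csf2, Il33 and Areg had at most 8 counts in any library. Il5, carried as a transgene in every group, had 150 to 341 RPKM and did not pass between tissues (log2 fold change 0.36 in control and 0.06 in the knockout). Among 9 genes of the resistin and chitinase families, 4 were tested between tissues, and 1 rose and 1 fell in each genotype. Over all genes tested, 34.2% passed in control and 47.6% in the knockout. Chit1, the macrophage chitotriosidase, fell by 3.65 on the log2 scale in control (SE 0.54, adjusted p = 0.00131) and by 4.37 in the knockout, and the chitinase-like gene Chil5 rose by 1.46 and 1.07. Chil1, another chitinase-like gene, stood at -1.10 and -0.75 and did not pass.

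**Figure D5:**
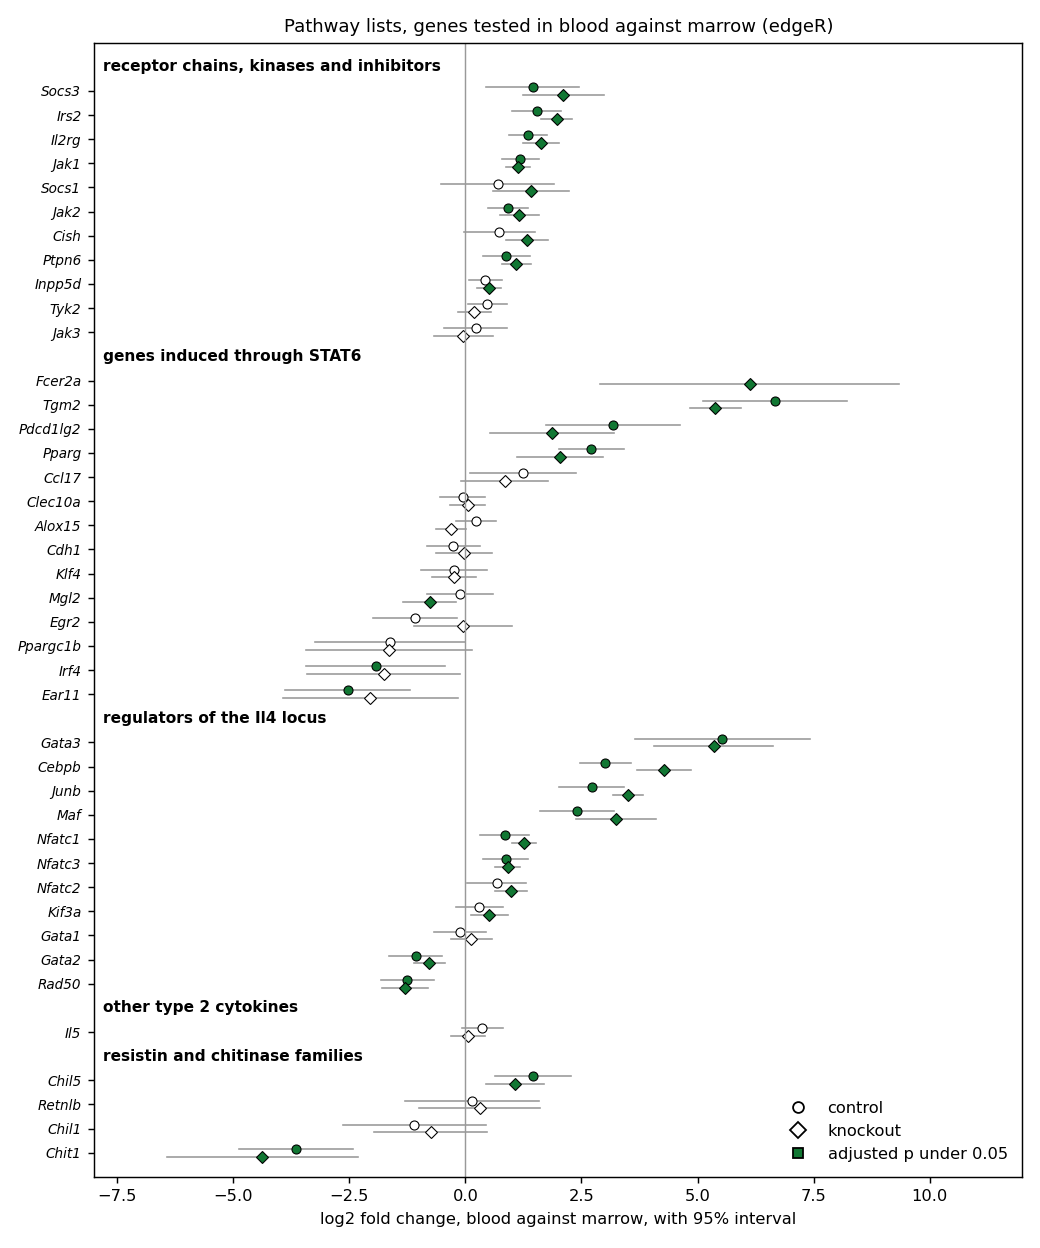
Log2 fold changes of the tested genes of 5 pathway lists in blood against bone marrow, with 95% intervals, in control (circles) and knockout (diamonds), filled where the adjusted p was under 0.05. Partners of the receptor lie mostly above 0 (medians 0.88 and 1.16), whereas genes induced through STAT6 spread to both sides.

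Between genotypes 0 of the 58 genes of these 5 lists were called in either tissue by edgeR, DESeq2 or limma-voom. In blood 3 of the 38 tested had an unadjusted p under 0.05 by edgeR, where 2.58% of all genes did, and in bone marrow 8 of 39, where 9.67% of all genes did, in the contrast by which Retnla was chosen. In bone marrow, given without a test, the widest differences among the genes of lowest p in each list were -1.01 for the resistin-like gene Retnlb, -0.81 for the ribonuclease Ear11 and -0.79 for the early growth response factor Egr2. All were lower in the knockout without overlap in CPM, as 14.5% of all genes tested did not overlap. Their counts were low, at 8 to 15 reads in knockout and 19 to 24 in control libraries for Retnlb. Ear11 had 15 to 39 and 39 to 66 reads, and Egr2 45 to 57 and 86 to 96. The factors Gata2 and Gata1 were each at -0.29 or -0.30, Nfatc2 at -0.42, and Jak2, Irs2 and Cish between -0.29 and -0.21. Chil5 was higher in the knockout (0.43), and Cdh1 (-0.29), Il5 (-0.26), Chil1 (-0.15) and Tslp (-0.07) were lower, all with overlapping libraries. In blood, Cebpb was higher in the knockout (log2 fold change 0.76, SE 0.19, 95% interval 0.32 to 1.2) with no overlap and Junb stood at 0.56, but neither passed over all genes (edgeR adjusted p = 1.0 for each). Alox15, the lipoxygenase of eosinophils, stood at -0.43 and Il5 at -0.54, and both were also short of the threshold. In the interaction Cebpb had the lowest p of these lists (difference 1.23, 95% interval 0.49 to 1.96, adjusted p = 0.852).

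Genes whose profile across the 12 libraries was most like that of a member were found by the mean absolute difference of log2 CPM after centring each gene. Retnla had no close match. Its nearest gene, 2310034G01Rik, differed by 0.42 log2 units on average, followed by Akr1c13 and Tnfrsf10b at 0.56. Akr1c13, an aldo-keto reductase, had 43.7 to 51.0 CPM in control bone marrow, 20.8 to 26.7 CPM in knockout bone marrow, 12.8 to 35.05 CPM in control blood and 12.1 to 28.2 CPM in knockout blood. Like Retnla, it was lower in every knockout than in every control bone marrow library. Retnlg, whose level varied less, was within 0.13 of Polr2i, Crip1 and Usf2, and Il4 within 0.13 of Gm10221, Siglecg and Polr2k. Chil3 was nearest to Il6st (0.21), which encodes the signalling chain of IL-6 family receptors, to the integrin gene Itga1 (0.23) and to Ppp1r26 (0.26). These distances are over 14711 other genes and 12 libraries that share group effects, and they carry no test.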

How the data were processed

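The authors aligned 100 bp single-end reads with HISAT2 2.2.1 and used featureCounts to assign them to genes, and deposited the raw counts with 1 column per library. The file header names GRCm38 with Ensembl release 92 and no strand option, while the methods name a GRCm39 annotation, and the table's own identifiers and coordinates were used. Reads that map to several places are not in the counts, which lowers near-identical genes. Symbols came from GENCODE M39 by Ensembl identifier for 49674 of 53801 genes. Of all listed genes only Ahsp was not matched.

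From the counts, edgeR 4.0.16 (R 4.3.3) gave TMM scaling, CPM, RPKM on the table's gene lengths and quasi-likelihood tests on the libraries of the 2 groups compared (all 12 for the interaction), after its filter (minimum count 10, minimum total 15), with Benjamini-Hochberg adjustment over all genes tested and calls at an adjusted p under 0.05. DESeq2 1.42.0 and limma 3.58.1 (voom), other scalings and filters, leaving out each library and the replicate number as a block were alternatives. The members and lists were chosen with earlier results of these data known, and an alternative without the blood libraries numbered 1 was added after the data were seen. Named list genes are the 3 of lowest p in each list and comparison.

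The fit was run on simulated counts with a common spread for all genes and no library that stood apart. That run does not check the fit on libraries such as control blood replicate 1. No pair of replicates agreed within sampling noise (chi-square per degree of freedom 15.6 or more). Same-numbered blood libraries of the 2 genotypes deviated together (r = 0.50, 0.21 and 0.30), and no other groups did so in every pair. The labels do not tie numbers to mice, so that p-values measure the spread between libraries. Sequences are from RefSeq (GRCm38.p6).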

Additional observations from a re-analysis of the deposited data

How the results depend on the processing

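Of the values of the 9 genes under alternatives, 638 kept their direction and side of the threshold, 14 passed only there, 19 passed only in the reported fit, and 40 changed sign, of which 0 were called. Between genotypes in blood, Retnlg turned to 0.028 under limma-voom, 0.084 under scaling by totals alone and 0.025 with the replicate block, and Stat6 to 0.048 under scaling by totals alone. In the interaction, Stat6 turned to 0.0090 under DESeq2, 0.0090 under RLE size factors, 0.090 under scaling by totals alone and 0.0060 without the blood libraries numbered 1, and Mrc1 to 0.087 under limma-voom and 0.24 without the blood libraries numbered 1. When each library was left out, the values that changed sign ran, between genotypes in bone marrow, from -0.37 to 0.045 for Retnlg and -0.13 to 0.011 for Stat6. In blood they ran from -0.18 to 0.12 for Retnlg, -0.10 to 0.042 for Stat6, -1.05 to 0.33 for Chil3, -0.20 to 1.39 for Il13, -0.014 to 0.46 for Il4ra and -0.36 to 0.66 for Mrc1. Between tissues Mrc1 ran from -0.67 to 0.35 in control and -0.44 to 0.023 in the knockout. In the interaction they ran from -0.11 to 0.072 for Stat6, -0.57 to 0.45 for Mrc1, -0.10 to 0.31 for Retnlg and -1.26 to 0.093 for Chil3. The count of genes called between genotypes in bone marrow (1, Retnla, which was chosen there) became 2 under DESeq2 and 2 without a filter (Retnla and Il13 in both), 0 in the fit of all 12 libraries, 0 with the replicate block and between 0 and 1 when each library was left out. Same-numbered bone marrow libraries did not deviate together. In blood and in the interaction the count was 0 under every alternative, the replicate block included, where Retnla in blood stood at -1.01 (adjusted p = 0.398). Between tissues the count of 6 in control ran from 5 to 7 under other tools, scalings, filters and the replicate block, from 4 to 8 when each library was left out, and was 8 without the blood libraries numbered 1. Within a genotype, leaving out the blood libraries numbered 1 is the same fit as leaving out blood replicate 1, and both enter the counts of values above. The count of 6 in the knockout ran from 5 to 7, was 6 with the replicate block and between 5 and 6 when each library was left out. The cause of these shifts was not tested. With 3 libraries a group, intervals of Retnla, Il13 and Chil3 in blood spanned over 2 log2 units, and Il13 in blood rested on 24 to 166 reads.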
